A study of Capra hircus with 6 samples.

Results

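Fibroblast growth factors (FGFs) are secreted ligands that bind, together with heparan sulfate, to receptor tyrosine kinases of the FGFR family. The receptor recruits the adaptor FRS2 and so feeds the RAS-ERK, PI3K and phospholipase C gamma cascades, and Sprouty proteins and dual-specificity phosphatases dampen the signal. In fat tissue, FGF2 is used to expand stromal cells in culture, and FGF1 and FGF10 are known for roles in the growth and formation of fat cells. FGF7 and FGF10 signal mainly through the IIIb splice form of FGFR2, and FGF2 prefers IIIc forms such as that of FGFR1. FGFRL1 binds FGFs but lacks the kinase domain.

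The genes examined were the ligand genes FGF1, FGF2, FGF5, FGF7 and FGF18 and the receptor genes FGFR1, FGFR2, FGFR4 and FGFRL1, taken by symbol from the deposited expression tables. These 9 genes were among 16262 with a symbol. FGFR3, the other of the 10 genes sought, was not analysed here. The samples were goat (Capra hircus) adipose mesenchymal stem cells, all labelled as under adipogenic differentiation, in 2 groups. The TAZ group had 3 libraries of cells overexpressing TAZ, the Hippo pathway coactivator encoded by WWTR1, and the control group had 3 libraries of WT genotype. The series asks what TAZ does when such cells turn into fat cells. Its title names TNF-α, but no sample label gives a cytokine. The labels do not say which vector or promoter drove TAZ, whether the control cells carried an empty vector, whether a line came from 1 clone, or whether replicates were separate cultures.

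Expression was given in FPKM, fragments scaled by gene length and library total. The steps between low values gave library totals of 33871397 to 37705644 fragments. WWTR1 stood at 84.6, 118.1 and 84.2 FPKM in the TAZ libraries, against 30.2, 29.9 and 35.9 FPKM in the control libraries. Genes were tested when they reached 1 FPKM in at least 3 of the 6 libraries, and of the 10750 tested 4074 (37.9%) passed the test at an adjusted p under 0.05, 1693 higher and 2381 lower in the TAZ libraries (limma, Benjamini-Hochberg). Scaling the libraries by their median ratio turned that balance, with 53.2% of the called genes higher in place of 41.6%. All 10 of the 10 stromal markers were tested. The stromal markers summed to 13685 to 15486 FPKM in the TAZ libraries, against 12211 to 13531 FPKM in the control libraries. Most of that sum was COL1A1, COL1A2 and COL3A1, so it says little about the other stromal markers. Of the 10, 6 passed, against 37.9% of all genes tested. PDGFRB, LUM, DCN and COL3A1 were the 4 higher, and THY1 and ENG were the 2 lower. The groups overlapped for LUM. Of 8 adipocyte markers 3 were tested, and the list summed to 40.6 to 47.6 FPKM in the TAZ libraries, against 60.5 to 63.6 FPKM in the control libraries; PPARG, ADIPOQ, PLIN1 and LPL averaged at most 0.13 FPKM in both groups. Of the 3, FABP5 fell to 23.7 ± 2.08 FPKM in the TAZ libraries, against 42.3 ± 0.506 FPKM in the control libraries. LIPE rose to 2.13 ± 0.111 FPKM, against 1.013 ± 0.114 FPKM, and CIDEC did not pass (limma adjusted p = 0.789). CD36, below the filter, was at 0.0942 ± 0.0463 FPKM in the TAZ libraries and 0.282 ± 0.157 FPKM in the control libraries. Its groups did not overlap, as for 24.6% of all genes below the filter. With no filter on low values CD36 did not pass (limma adjusted p = 0.103). Leukocyte markers summed to 26.7 to 27.8 FPKM in the TAZ libraries, against 13.6 to 16.7 FPKM in the control libraries, most of it CD14, with the defining gene PTPRC listed at 0 in all 6 libraries. CD68 was lower, at 2.86 ± 0.333 FPKM in the TAZ libraries and 4.53 ± 0.437 FPKM in the control libraries (limma adjusted p = 0.00185). CD3E was also lower, with 11 and 84 fragments, as was CD79A, with 2 and 28 fragments. Both lay below the filter and passed with no filter on low values (limma adjusted p = 0.00066 and 0.0129). Of all genes below the filter, 13.9% passed in that fit, and 24.6% had groups that did not overlap. CSF1R, with 15 and 14 fragments, and ITGAM, with 5 and 3 fragments, had overlapping groups. Pericyte markers summed to 39.0 to 50.4 FPKM in the TAZ libraries, against 34.5 to 45.1 FPKM in the control libraries. Among them NOTCH3 rose to 17.4 ± 0.631 FPKM, against 12.5 ± 1.14 FPKM (limma adjusted p = 0.00192). CSPG4 did not pass (limma adjusted p = 0.969), and RGS5, KCNJ8, ABCC9 and MCAM were below the filter with overlapping groups. Endothelial markers (0.137 to 0.316 against 0.336 to 0.533 FPKM, KDR listed at 0 in all 6 libraries) and skeletal muscle markers (0.269 to 0.392 against 0.417 to 0.483 FPKM) were near 0 in TAZ and control libraries. With no filter on low values, PECAM1 (35 and 133 fragments) and DES (59 and 99 fragments) passed lower (limma adjusted p = 0.00415 and 0.00218). VWF (73 and 29 fragments) and PAX7 (16 and 3 fragments) were higher without overlap and did not pass (limma adjusted p = 0.0728 and 0.111). The part of these markers in the results was not tested. Cell numbers were not measured, so fewer cells of a type and less RNA per cell cannot be told apart.

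The receptor genes moved in opposite directions, while neither of the tested ligand genes among the 9 passed the test. FGFR1 rose, and FGFR2 and FGFRL1 fell. Of the 9 genes, 5 reached the filter and 4 did not (FGF1, FGF5, FGF18 and FGFR4). Of the 5 tested genes 3 passed, against 37.9% of all genes tested (37.5% in the fit of recovered fragments); 1 was higher, against 15.7% of all genes tested, and 2 were lower, against 22.1%. FGFR2 and FGFRL1 reached the filter only through the control libraries and so had to differ, and the count is no support for a change of the family. The groups did not overlap for FGFR1, FGFR2 and FGFRL1, against 48.4% of all genes tested, of which 19.7% had every TAZ library above the controls and 28.7% every TAZ library below.

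FGFR1, the main FGF receptor of mesenchymal cells, was the most abundant of the receptor genes in both groups. Its levels were 87.9, 102.4 and 89.9 FPKM in the TAZ libraries, against 61.0, 54.9 and 56.0 FPKM in the control libraries. Every TAZ library lay above every control library. The group means were 93.4 ± 7.86 FPKM in the TAZ libraries and 57.3 ± 3.23 FPKM in the control libraries (SD, n = 3 each), a ratio of 1.63. The log2 fold change on the log2(FPKM + 1) scale, TAZ minus control, was 0.69 (SE 0.088, 95% interval 0.50 to 0.88, limma adjusted p = 4.19e-05). The values rested on 46017 fragments in the TAZ libraries and 26808 in the control libraries, so counting error was small beside the spread between libraries. FGFR1 ranked 633rd among all tested genes by the size of its rise. The row counts the whole gene, to which RefSeq gives 13 transcripts, and so cannot separate splice forms with different ligand preference.

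FGFR2, which in its IIIb form is the receptor for FGF7 and FGF10, was low in the controls and lower still with TAZ. It stood at 0.670, 0.414 and 0.629 FPKM in the TAZ libraries, against 2.06, 3.16 and 3.09 FPKM in the control libraries. The highest TAZ library lay far below the lowest control library. That the groups did not overlap was fixed in advance, since FGFR2 reached the filter only through the control libraries. With no filter on low values, where 25.2% of all genes passed, FGFR2 also passed (limma adjusted p = 0.00125). The means were 0.571 ± 0.137 FPKM in the TAZ libraries and 2.77 ± 0.615 FPKM in the control libraries (SD, n = 3 each), so the TAZ level was 0.206 times the control level. The log2 fold change was -1.25 on the log2(FPKM + 1) scale (SE 0.13, 95% interval -1.53 to -0.98, limma adjusted p = 5.63e-06), which placed it 47th among all falls. That scale understates the change of low genes. In a fit of the recovered fragments, 300 in the TAZ libraries against 1389 in the control libraries, the log2 fold change was -2.28, a fold of 0.206 with a 95% interval of 0.146 to 0.290 (limma voom adjusted p = 4.61e-06). FGFR2 is also counted over 13 RefSeq transcripts, so the share of the IIIb form was not measured. Epithelial cells are a known source of the IIIb form. The 8 epithelial markers summed to 0.697 to 0.946 FPKM in the TAZ libraries, against 0.667 to 0.919 FPKM in the control libraries, and none of them was above the filter. EPCAM had 10 fragments in the TAZ libraries and 1 in the control libraries, groups that did not overlap, in the direction opposite to FGFR2. It did not pass with no filter on low values (limma adjusted p = 0.0662). ESRP1, a splicing regulator that promotes IIIb forms, had 1 and 0 fragments. ESRP2 of the same family had 215 fragments in the TAZ libraries and 175 in the control libraries. It had the highest level of the 8, at 0.580 ± 0.171 FPKM in the TAZ libraries and 0.492 ± 0.0583 FPKM in the control libraries. CDH1, which encodes E-cadherin, was lower like FGFR2, with 5 fragments in the TAZ libraries and 62 in the control libraries. Its groups did not overlap (limma adjusted p = 0.0388 with no filter on low values). Of all genes below the filter, 13.9% passed in that fit, and 24.6% had groups that did not overlap. ESRP2 and the remaining epithelial markers had overlapping groups. The part of such cells in the FGFR2 difference was not tested.

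FGFRL1, the receptor without a kinase domain, was also lower in the TAZ libraries. Its levels were 0.623, 0.662 and 0.856 FPKM in the TAZ libraries, against 1.89, 1.81 and 1.38 FPKM in the control libraries. The groups did not overlap, which was fixed in advance, since FGFRL1 too reached the filter only through the control libraries. With no filter on low values, where 25.2% of all genes passed, FGFRL1 also passed (limma adjusted p = 0.00393). Mean levels were 0.714 ± 0.125 FPKM in the TAZ libraries and 1.69 ± 0.272 FPKM in the control libraries (SD, n = 3 each), a ratio of 0.421. On the log2(FPKM + 1) scale the log2 fold change was -0.65 (SE 0.11, 95% interval -0.88 to -0.42, limma adjusted p = 0.000366). In the fit of fragments, 187 in the TAZ libraries against 421 in the control libraries, it was -1.24, a fold of 0.424 with a 95% interval of 0.308 to 0.584 (limma voom adjusted p = 0.000509).

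FGFR4, a receptor best known from liver, was near 0. It was listed at 0, 0.0507 and 0.0259 FPKM in the TAZ libraries, against 0, 0.0188 and 0.0184 FPKM in the control libraries, from 9 fragments (exact Poisson 95% interval 4.12 to 17.1) and 4 fragments (1.09 to 10.2). The groups overlapped, and a difference was not detectable at this depth. These intervals cover counting error only.

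**Figure D1:**
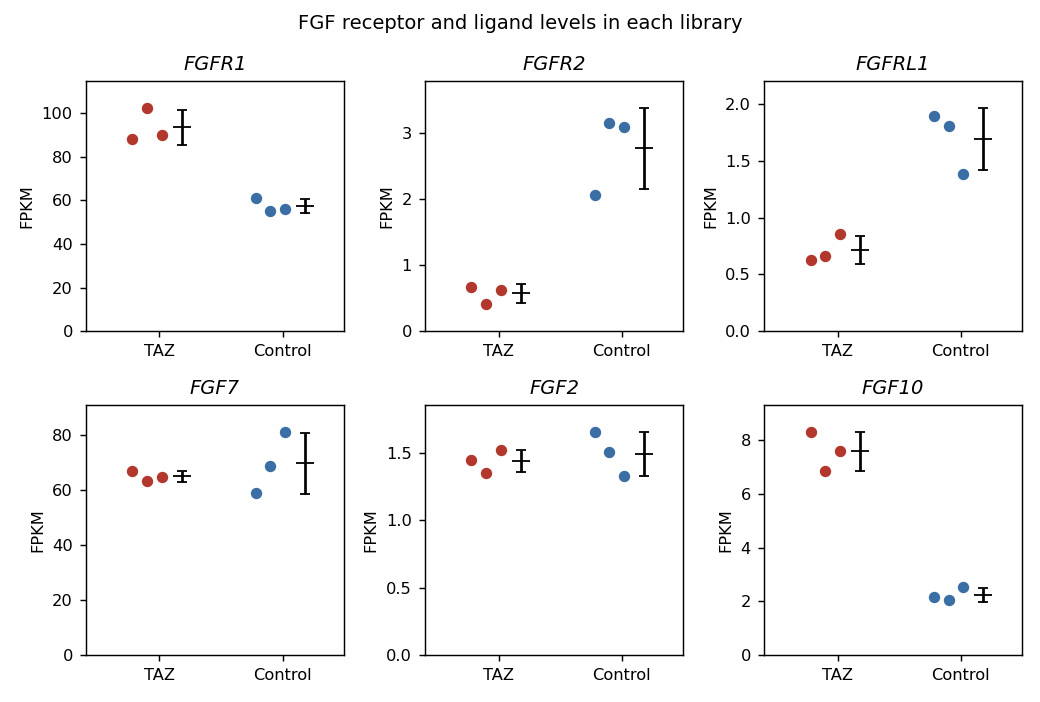
Levels in FPKM (vertical axes, linear from 0) of the 5 tested genes and of FGF10 in each library; dots are libraries, with TAZ left of control, and the bars beside them give the mean and SD of the 3. FGFR1 and FGF10 lie higher in all TAZ libraries, FGFR2 and FGFRL1 lie lower, and FGF7 and FGF2 overlap.

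FGF7, also known as keratinocyte growth factor and made by mesenchymal cells, was by far the most abundant of the ligand genes. Its levels were 67.0, 63.2 and 64.6 FPKM in the TAZ libraries, against 58.9, 68.7 and 81.2 FPKM in the control libraries. The TAZ values all lay within the range of the control values, which spread more widely. The means were 64.9 ± 1.90 FPKM in the TAZ libraries and 69.6 ± 11.2 FPKM in the control libraries (SD, n = 3 each). The log2 fold change was -0.087 (SE 0.11, 95% interval -0.32 to 0.14, limma adjusted p = 0.55) and its sign turned without control replicate 3, at 0.029. The fit of fragments gave a fold of 0.941 with a 95% interval of 0.797 to 1.11, so a change of the size seen for FGFR1 lay outside the interval. In RefSeq's gene table FGF7 overlaps FAM227B, whose own mean level was 0.331 FPKM in the TAZ libraries and 0.272 FPKM in the control libraries.

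FGF2, the basic fibroblast growth factor, was low in both groups. It was at 1.45, 1.35 and 1.52 FPKM in the TAZ libraries, against 1.65, 1.51 and 1.33 FPKM in the control libraries. The groups overlapped. The log2 fold change was -0.031 (SE 0.096, 95% interval -0.24 to 0.18, limma adjusted p = 0.829), and its sign turned under median-ratio scaling and without control replicate 1. With 184 fragments in the TAZ libraries and 182 in the control libraries, the fit of fragments gave a 95% interval of 0.7025 to 1.33 for the fold.

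The other ligand genes were at the limit of detection. FGF5, an FGF known from the control of hair growth, was at 0, 0.0249 and 0.0508 FPKM in the TAZ libraries, against 0.161, 0.0554 and 0.0542 FPKM in the control libraries, from 3 fragments (exact Poisson 95% interval 0.619 to 8.77) and 10 fragments (4.80 to 18.4). FGF18, which acts in cartilage and bone, had 1 fragment in the TAZ libraries and 6 in the control libraries. In fragments the groups met for both genes, with 2 for FGF5 in TAZ replicate 3 and in control replicates 2 and 3, and 1 for FGF18 in TAZ replicate 3 and in control replicate 1, so the small gap between the groups in FPKM came from the library totals. With no filter on low values, where 25.2% of all genes passed, neither did (limma adjusted p = 0.175 for FGF5 and 0.133 for FGF18). FGF1, acidic fibroblast growth factor, had 0 fragments in the TAZ libraries (exact Poisson 95% interval of the sum 0 to 3.69) and 1 fragment in the control libraries (0.0253 to 5.57). Taken alone, a TAZ library with 0 fragments allows up to 3 fragments or 0.0195 FPKM.

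**Figure D2:**
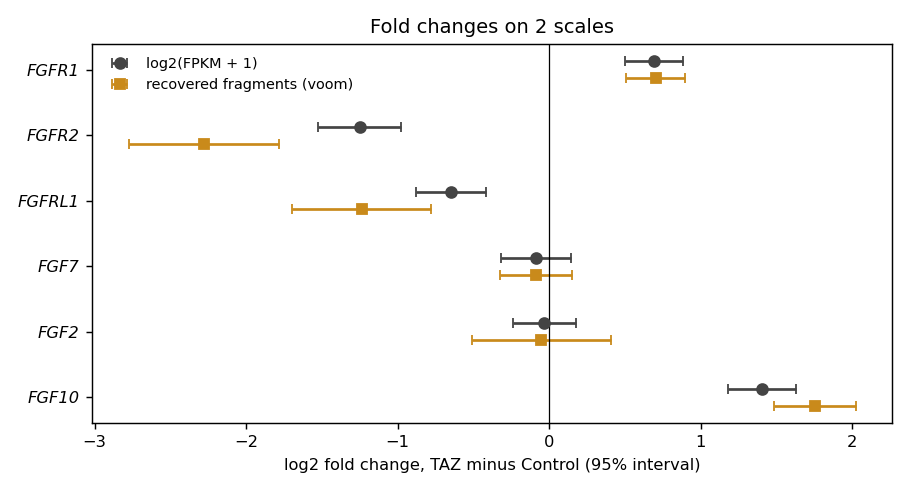
Log2 fold changes, TAZ minus control, with 95% intervals (horizontal axis) for the 5 tested genes and FGF10, on the log2(FPKM + 1) scale (circles) and in the fit of recovered fragments (squares). The scales give the same sign for each gene, and the low genes FGFR2 and FGFRL1 change more in fragments, at -2.28 and -1.24.

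The order of the levels, which FPKM allows because it is per length, differed between the groups. In the TAZ libraries FGFR1 came first, followed by FGF7, FGF2, FGFRL1 and FGFR2, and of these neighbours only FGFRL1 and FGFR2 had overlapping ranges. In the control libraries FGF7 at 58.9 to 81.2 FPKM and FGFR1 at 54.9 to 61.0 FPKM overlapped at the top, FGFR2 came next, and FGFRL1 overlapped with FGF2. The remaining 4 genes lay below these in both groups. Among the receptors, FGFR1 made up 98.6%, 98.9% and 98.3% of the summed FPKM of the 4 receptor genes in the TAZ libraries, against 93.9%, 91.7% and 92.6% in the control libraries. FGFR2 took 0.751%, 0.400% and 0.688% of that sum in the TAZ libraries, against 3.17%, 5.27% and 5.10% in the control libraries. The receptor sum itself was 94.7 ± 7.72 FPKM in the TAZ libraries and 61.8 ± 2.75 FPKM in the control libraries (SD, n = 3 each), nearly all of it FGFR1. There were 174 ± 63.8 FPKM of FGFR1 for each FPKM of FGFR2 in the TAZ libraries and 21.7 ± 6.85 in the control libraries. These sums and shares describe chosen genes and carry no test, and FGFR3 is not in them.

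**Figure D3:**
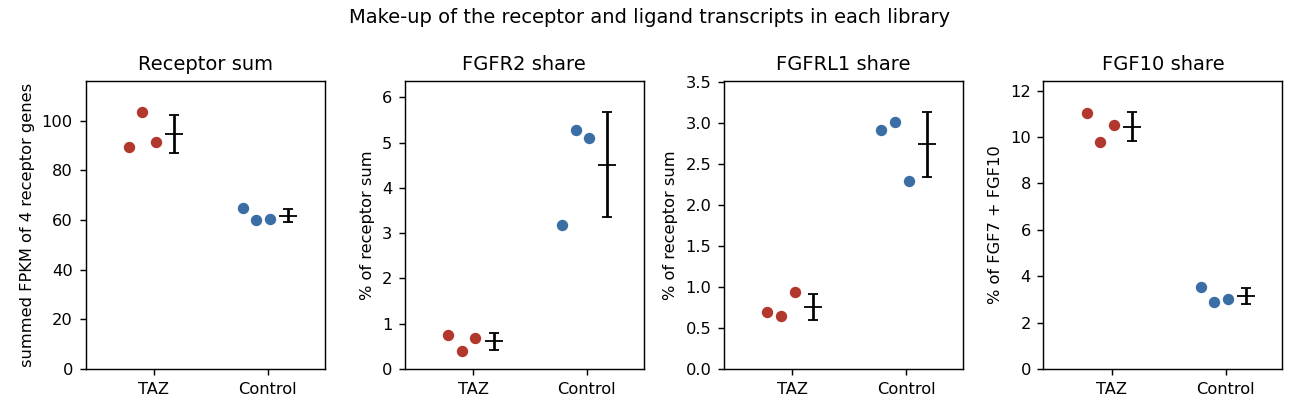
Summed FPKM of the 4 receptor genes, the shares of FGFR2 and FGFRL1 in that sum, and the share of FGF10 in the sum of FGF7 and FGF10 (vertical axes, linear from 0), in each library; dots are libraries, with TAZ left of control, and bars give the mean and SD. The receptor sum and the FGF10 share are higher in all TAZ libraries and the FGFR2 and FGFRL1 shares lower.

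TAZ replicate 2, which had the highest WWTR1 level at 118.1 FPKM, also had the highest FGFR1 and the lowest FGFR2 of the TAZ libraries. The other called FGF genes did not follow, since FGF10, which rose, was lowest in that library at 6.85 FPKM, and FGFRL1, which fell, was lowest in TAZ replicate 1 at 0.623 FPKM. Without that library the log2 fold changes were 0.63 for FGFR1 and -1.18 for FGFR2, and both still passed the test (limma adjusted p = 0.000313 and 5.29e-05).

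Of the 17 further FGF genes sought, 12 had a row and FGF10 alone reached the filter. FGF10, a second ligand of the IIIb form of FGFR2, was at 8.32, 6.85 and 7.60 FPKM in the TAZ libraries, against 2.15, 2.05 and 2.53 FPKM in the control libraries. All TAZ libraries lay well above the controls. The mean levels were 7.59 ± 0.733 FPKM in the TAZ libraries and 2.24 ± 0.256 FPKM in the control libraries (SD, n = 3 each), a ratio of 3.38, and the log2 fold change was 1.40 (SE 0.10, 95% interval 1.18 to 1.63, limma adjusted p = 2.76e-07). FGF10 took 10.45% ± 0.638 of the summed FPKM of FGF7 and FGF10 in the TAZ libraries and 3.15% ± 0.330 in the control libraries. The sum was 72.5 ± 2.63 FPKM in the TAZ libraries and 71.9 ± 11.4 FPKM in the control libraries (SD, n = 3 each). The other 11 genes stayed at or below 0.919 FPKM in every library. FGF14, an intracellular FGF homologue that modulates sodium channels in nerve cells, was at 0.0237 ± 0.0169 FPKM in the TAZ libraries and 0.211 ± 0.0619 FPKM in the control libraries, from 9 and 78 fragments. It is named after its values were seen, as the only 1 of the 12 that passed lower with no filter on low values (limma adjusted p = 0.00495). Of all 5271 genes below the filter, 13.9% passed in that fit, and 24.6% had groups that did not overlap.

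Genes for the coreceptors and for heparan sulfate, the sugar chain that FGFs need for binding, split in both directions. Of 29 genes sought 19 were tested, of which 3 rose, 7 fell and 9 did not pass. GPC2, one of the 7, reached the filter only through the control libraries and so had to differ. The share called was 52.6%, against 37.9% over all tested genes, and the median log2 fold change was 0.011, against -0.050 over all tested genes. The count of rises was 5 without control replicate 3. Within the syndecans, cell-surface carriers of heparan sulfate, SDC4 rose to 189 ± 5.98 FPKM in the TAZ libraries, against 88.7 ± 9.66 FPKM in the control libraries (log2 fold change 1.09, SE 0.090, limma adjusted p = 7.64e-07). SDC2 fell to 3.32 ± 0.415 FPKM in the TAZ libraries, against 9.66 ± 1.34 FPKM in the control libraries, and SDC3 fell to 10.5 ± 0.472 FPKM, against 19.4 ± 1.09 FPKM (SD, n = 3 each). SDC1 was at 175 ± 13.4 FPKM in the TAZ libraries and 170 ± 7.38 FPKM in the control libraries and did not pass (limma adjusted p = 0.741). EXT1, a polymerase of heparan sulfate, and SULF1, an extracellular sulfatase, were the other genes that rose. SULF2, the other sulfatase of the list, fell to 4.90 ± 0.311 FPKM in the TAZ libraries, against 6.78 ± 1.25 FPKM in the control libraries (limma adjusted p = 0.0199). KL and KLB, the Klotho coreceptors of endocrine FGFs, had 1 fragment and 0 fragments in the 6 libraries.

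Most adaptor and cascade genes did not pass. Of 32 sought 29 were tested, of which 3 rose, 5 fell and 21 did not pass, a share called of 27.6% against 37.9% over all tested genes, with a median log2 fold change of -0.0052. MAPK3, which encodes ERK1, fell to 42.8 ± 2.65 FPKM in the TAZ libraries, against 67.5 ± 4.24 FPKM in the control libraries (log2 fold change -0.65, SE 0.086, limma adjusted p = 6.2e-05). PIK3R2, a regulatory subunit of PI3K, and PLCG1, phospholipase C gamma 1, fell to 0.643 and 0.640 times the control level. FRS2, the docking adaptor of FGF receptors, was at 1.98 ± 0.363 FPKM in the TAZ libraries and 2.24 ± 0.326 FPKM in the control libraries and did not pass (limma adjusted p = 0.437). GAB1, an adaptor that recruits PI3K, was 1.41 times as high (limma adjusted p = 0.03). Leaving out TAZ replicate 1, control replicate 1 or control replicate 2 ended that call, at limma adjusted p-values of 0.133, 0.0816 and 0.109. The 3 rises became 0 without any 1 of those same libraries, and 5 under median-ratio scaling.

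The list of feedback inhibitors had 13 tested genes of 17, of which 4 rose, 2 fell and 7 did not pass, a share of 46.2% against 37.9% over all tested genes, with a median log2 fold change of 0.12. FLRT2 and FLRT3 had the lowest adjusted p-values of the rises. They encode membrane proteins that bind FGF receptors and, from work in Xenopus, FLRT3 promotes FGF signalling rather than inhibiting it. FLRT2 was at 19.1 ± 1.73 FPKM in the TAZ libraries and 10.7 ± 1.06 FPKM in the control libraries (log2 fold change 0.78, SE 0.10, limma adjusted p = 5.31e-05), and FLRT3 was 1.47 times as high. SPRY1, a Sprouty inhibitor of receptor tyrosine kinase signalling, was at 1.77 ± 0.516 FPKM in the TAZ libraries and 0.826 ± 0.0722 FPKM in the control libraries (limma adjusted p = 0.00337), and it had the largest ratio of the 4, at 2.14. It reached the filter only through the TAZ libraries and so had to differ. SPRY2, the other rise, was at 25.4 ± 1.26 FPKM in the TAZ libraries and 18.8 ± 5.05 FPKM in the control libraries (limma adjusted p = 0.0244). Its groups overlapped, and it did not pass with no filter on low values (limma adjusted p = 0.104). DUSP5, a nuclear ERK phosphatase, fell to 7.61 ± 1.56 FPKM in the TAZ libraries, against 11.3 ± 2.08 FPKM in the control libraries, and leaving out control replicate 1 ended that call (limma adjusted p = 0.0517). The 2 falls became 1 without TAZ replicate 3 or control replicate 1. DUSP6, the cytoplasmic ERK phosphatase that is a common readout of FGF signalling, was at 26.0, 32.7 and 26.0 FPKM in the TAZ libraries, against 29.1, 22.5 and 23.7 FPKM in the control libraries, and did not pass (limma adjusted p = 0.292).

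Genes that respond to ERK also went both ways. Of 20 tested 6 rose, 3 fell and 11 did not pass, a share of 45.0% against 37.9% over all tested genes, with a median log2 fold change of 0.16. ETV1, an ETS-family factor, was at 40.3, 37.1 and 33.7 FPKM in the TAZ libraries, against 15.6, 11.9 and 15.6 FPKM in the control libraries (log2 fold change 1.31, SE 0.11, limma adjusted p = 1.01e-06). Its relatives differed from it, since ETV4 fell to 17.8 ± 1.09 FPKM in the TAZ libraries, against 24.2 ± 3.89 FPKM in the control libraries, and ETV5 did not pass (limma adjusted p = 0.191). EGR1, an immediate early factor, rose to 106 ± 4.11 FPKM in the TAZ libraries, against 70.0 ± 9.16 FPKM in the control libraries, whereas EGR3 of the same family fell to 0.763 ± 0.17 FPKM in the TAZ libraries, against 2.04 ± 0.47 FPKM in the control libraries. EGR3 reached the filter only through the control libraries and so had to differ, while the other 2 falls, ETV4 and CCND1, did not depend on that.

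**Figure D4:**
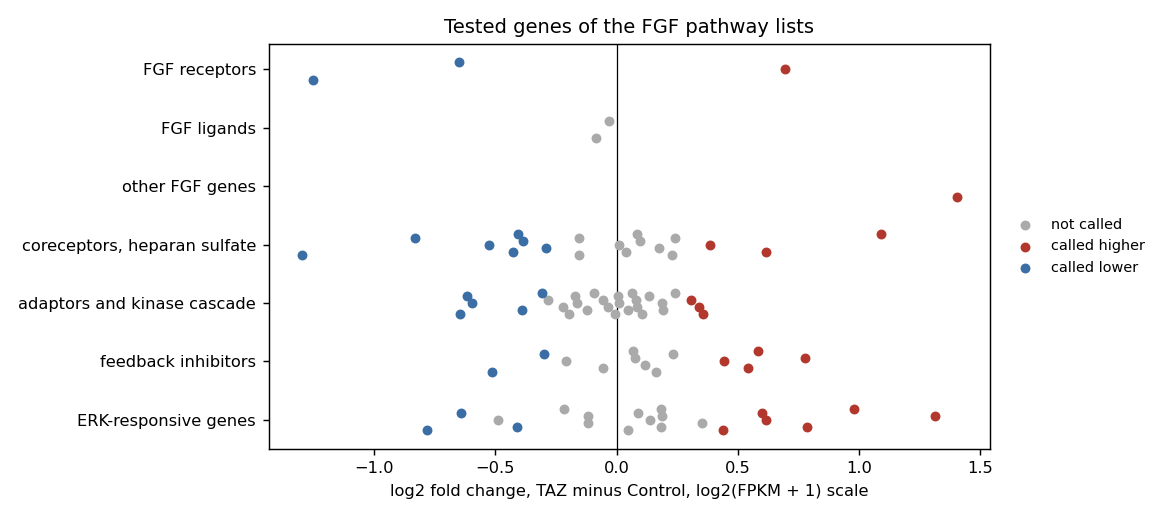
Log2 fold change on the log2(FPKM + 1) scale, TAZ minus control (horizontal axis), of each tested gene of the FGF family and of the pathway lists (rows; vertical scatter within a row has no meaning), coloured by whether the limma test called it higher, lower or not at all. Every list with more than 10 tested genes holds both rises and falls.

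Across the 6 libraries, the tested genes with a symbol other than a LOC number whose values lay closest to those of FGFR1, by the mean absolute difference of log2(FPKM + 1) centred on the control mean, were FAM83D, AMPD3 and NFE2L1, at 0.029, 0.032 and 0.035. For FGFR2 they were CHN1, ITGA11 and MAP2K6, at 0.037, 0.060 and 0.065.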

How the data were processed

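The authors deposited FPKM values in 1 table per group, per the file headers. The submitters' processing notes name fastp, HISAT2 and HTSeq, without versions. Strand setting, genome build and handling of shared reads were not given in the sources used here. Coordinates are therefore left out, and overlapping genes are uncertain. Each table had 16285 rows, of which 23 held a date in place of a symbol and were left out. Symbols were matched to RefSeq's table of assembly ARS1.2 (16262 of 16262).

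FPKM is a whole fragment number divided by gene length and library total, and the spacing of low values returns these. The smallest length that made every value of a gene whole was taken. For genes above 0 in a single library or with few fragments, such as FGF1 and KL, fragment numbers are therefore the smallest that fit. A length was recovered for 99.99% of rows above 0 (within 0.02 of whole fragments), and the fragments made up 99.46% to 99.52% of the totals. Chi-square per degree of freedom between libraries of a group was 20.8 to 32.8, so none was deposited again as another.

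Libraries were grouped by title. Values were taken as log2(FPKM + 1) and tested with limma 3.58.1 in R 4.3.3 (empirical Bayes with a mean-variance trend, two-sided, Benjamini-Hochberg over all tested genes, threshold 0.05), and the recovered fragments with limma's voom. Since no label says that replicates were separate cultures, p-values reflect only how much the libraries of a group vary, and that variation may be technical. The scripts were tested on simulated data. The FGF genes and the pathway and marker lists were chosen with earlier results of these data known. Genes named are all FGF genes examined, WWTR1, the 3 called genes with the lowest adjusted p of each list and the leading gene of the rarer direction; SDC1, FRS2, DUSP6, ETV4 and others were added as textbook members. Alternatives were other pseudocounts, filters and scalings, the replicate block, voom and leaving out each library (then 2 libraries at 1 FPKM sufficed).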

Additional observations from a re-analysis of the deposited data

How the results depend on the processing

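FGFR1, FGFR2, FGFRL1, FGF10 and WWTR1 kept their direction and passed the test under every alternative in which they were tested; the stricter filter (a mean of 5 FPKM) tested neither FGFR2, FGFRL1 nor FGF10 and so left 1 of the 9 FGF genes called and 0 of the further FGF genes. Leaving out each library gave log2 fold changes of 0.63 to 0.74 for FGFR1, -1.39 to -1.17 for FGFR2 and -0.74 to -0.60 for FGFRL1. FGFR2 ran to -2.09 with a pseudocount of 0.1 and FGFRL1 to -1.14. FGF2 turned to 0.0030 under median-ratio scaling, and leaving out a library gave -0.080 to 0.014 for FGF2 and -0.20 to 0.029 for FGF7, none of which passed. With no filter on low values 1 further FGF gene was called lower. The 1 cascade gene called higher in that fit was MAP2K1 (limma adjusted p = 0.0461), which did not pass with the filter (limma adjusted p = 0.0787). The 3 cascade genes that rose with the filter, GAB1, PIK3CA and PIK3R1, did not pass without it (limma adjusted p = 0.0776, 0.0977 and 0.116). With the stricter filter 1 cascade gene was called higher, and 5 were under median-ratio scaling. Leaving out a library gave 0 to 3 cascade genes higher, 2 to 5 coreceptor and heparan sulfate genes higher and 1 to 2 feedback inhibitors lower. DUSP5 and SPRY2 were also not called with no filter (limma adjusted p = 0.068 and 0.104). The replicate block called 1 feedback inhibitor lower and 3512 genes in all, against 4074; same-numbered libraries deviated from their group means with correlations of -0.44, -0.11 and -0.40, so the number is not shown to pair them, and every TAZ library correlated best with a control library of another number. Depth limits FGF1, FGF5, FGF18 and FGFR4, with 10 fragments or fewer per group.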

Other observations

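Of 24 pathway genes that stayed below the filter but above 0, 7 passed with no filter on low values, against 13.9% of all genes below the filter and 25.2% of all genes in that fit. The 6 besides FGF14 are named after their values were seen. The groups did not overlap for any of the 6, which is no further support, since the 6 were picked for passing on these same libraries. Of all 24 genes, 9 had groups that did not overlap, against 24.6% of all genes below the filter. GPC3, a glypican, had 0.137 ± 0.102 FPKM in the TAZ libraries and 0.353 ± 0.0375 FPKM in the control libraries (limma adjusted p = 0.0279). IL17RD, also called Sef, had 0.159 ± 0.0287 FPKM in the TAZ libraries and 0.256 ± 0.0381 FPKM in the control libraries (limma adjusted p = 0.0324). DUSP9, an ERK phosphatase, had 0.0494 ± 0.00691 FPKM in the TAZ libraries and 0.728 ± 0.01645 FPKM in the control libraries (SD, n = 3 each), from 10 and 140 fragments (limma adjusted p = 4.03e-06 with no filter on low values). DUSP4, another phosphatase of the family, had 0.260 ± 0.0436 FPKM in the TAZ libraries and 0.0854 ± 0.0414 FPKM in the control libraries (limma adjusted p = 0.00712). SPRY3, a Sprouty gene, had 0.734 ± 0.150 FPKM in the TAZ libraries and 0.226 ± 0.173 FPKM in the control libraries (limma adjusted p = 0.017). ANOS1, which encodes the FGFR1-binding matrix protein anosmin-1, had 37 fragments in the TAZ libraries and 6 in the control libraries (limma adjusted p = 0.0183).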
